A study of Mus musculus with 32 samples.

Results

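The genes described are those of MHC class II antigen presentation with their master regulator: the class II chains H2-Aa, H2-Ab1 and H2-Eb1, the invariant chain Cd74, the peptide loading genes H2-DMa and H2-DMb1, and the class II transactivator Ciita. They were chosen by symbol, and these 7 were found among the 55103 gene rows of the count table. All 7 passed the filter on low counts, which kept 20474 genes. Bulk RNA sequencing was done on 32 tumours grown from KPC36 cells, a mouse pancreatic cancer line. The 4 groups of 8 libraries are tumours given carbon ions, untreated tumours of the carbon-ion arm, tumours given photons, and untreated tumours of the photon arm. Carbon ions are charged particles that release most of their energy where they stop, and photons are conventional radiotherapy. Tumours were taken on days 4 and 7, the day of a given library is not in the labels, and strain, sex, age and dose are not given there either. Although the cell type label reads malignant, the RNA came from whole tumour tissue, which holds leukocytes and stroma beside the cancer cells.

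MHC class II molecules show peptides from ingested proteins to CD4 T cells, and dendritic cells, macrophages and B cells are their main producers. The alpha and beta chains assemble with the invariant chain in the endoplasmic reticulum, reach an acidic compartment where the invariant chain is cut away, and exchange its last fragment for a peptide with the help of H2-M, the dimer of H2-DMa and H2-DMb1. Ciita does not bind DNA. It is recruited to class II promoters by factors bound at the X and Y elements, and its own expression, induced by interferon gamma in many cells, is the main switch of the pathway. In a bulk tumour, fewer cells of a type and less RNA per cell cannot be told apart.

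On the mouse build GRCm38, with the GENCODE vM21 annotation, 5 of the genes lie within the MHC on chromosome 17. H2-Aa is at chr17:34282744-34287823 on the minus strand. On the plus strand are H2-Ab1 at chr17:34257689-34269419, H2-Eb1 at chr17:34305867-34316674, H2-DMa at chr17:34119541-34139101 and H2-DMb1 at chr17:34153072-34160230. Ciita is at chr16:10480059-10528418 on the plus strand, and Cd74 lies outside the MHC too. H2-DMb1 has a near-identical copy, H2-DMb2, at chr17:34143307-34151555, and 27.2% of the 50-base words of its transcripts also occur in H2-DMb2, so the division of reads between the copies is uncertain. H2-DMa, H2-Eb1 and Ciita each overlap a gene on the other strand (Brd2, Gm20513 and Dexi among them). The use of strand in counting is not given in the sources used here, so reads of such partners may be mixed.

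Stretches of 3 class II promoters are shown, searched for motifs of the X and Y elements. H2-DMb2 among them is not one of the 7 genes. The stretches of 90 bases are from RefSeq on GRCm38.p6, where 4 of the 7 genes had a window of 250 bases before to 50 bases after the start. Capitals mark an X1 core (ACNGATG), a Y core (GATTGG) and a cyclic AMP response element (TGACGTCA), each searched on both strands and capitalised on the gene's strand. H2-Aa lies at chr17:34287847-34287936 (minus strand), H2-Eb1 at chr17:34305743-34305832 and H2-DMb2 at chr17:34145094-34145183.
H2-Aa: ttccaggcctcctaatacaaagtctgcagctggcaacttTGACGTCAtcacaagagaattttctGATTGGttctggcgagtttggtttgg
H2-Eb1: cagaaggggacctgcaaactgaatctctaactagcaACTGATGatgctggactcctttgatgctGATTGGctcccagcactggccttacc
H2-DMb2: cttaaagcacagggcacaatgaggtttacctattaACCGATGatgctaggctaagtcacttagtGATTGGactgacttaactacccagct
The Y core begins 49 bases before the start in H2-Aa, 60 in H2-Eb1, 62 in H2-DMb1 and 91 in H2-DMb2, and in H2-Aa the response element begins 74 bases before it. These starts are RefSeq's. GENCODE vM21 starts H2-DMb1 and H2-DMb2 farther upstream, so that by its models the Y core of H2-DMb1 lies in the 5′ UTR and the stretch shown for H2-DMb2 in an intron. In the window of H2-Eb1 the X1 core precedes the Y core by 28 bases, and in those of H2-DMb1 and H2-DMb2 by 29. The X1 core was found in 9.85%, the Y core in 16.1% and the response element in 1.79% of the 32851 RefSeq promoter windows. An X1 core followed by a Y core at 26 to 31 bases on the gene's strand, a rule chosen after these sequences had been seen, was found in 6 windows (0.0183%). Those windows belong to H2-Eb1, H2-Eb2, H2-DMb1, H2-DMb2, BC051142 and Scaper, and all except Scaper are on chromosome 17. Neither window of H2-DMa held an X1 core or a response element. Such matches are a description of letters and show no binding.

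The invariant chain was the most abundant of the transcripts and Ciita the least. Levels are CPM, a gene's count relative to its scaled library total, and for comparing genes they were divided by the length in kilobases of the longest APPRIS principal transcript. Per kilobase, Cd74 was at 315 ± 62.0 CPM (SD, n = 8) in the carbon-ion controls and at 205 ± 47.0 after photons. H2-Ab1 followed with 115 ± 21.6 and 72.7 ± 14.7 CPM per kilobase in these groups, and H2-Aa with 114 ± 16.4 and 71.9 ± 13.7, so these 2 did not differ beyond their spread. H2-Eb1 came next with 76.7 ± 12.4 and 45.2 ± 10.1. Much lower were H2-DMa with 14.96 ± 1.97 and 11.5 ± 2.60, and H2-DMb1 with 13.1 ± 2.20 and 8.11 ± 2.61, closer to each other than their spread in the controls but not after photons. Ciita, at 3.58 ± 0.406 and 2.26 ± 0.721 CPM per kilobase, was last. The order of the 7 means was the same in all 4 groups.

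**Figure D1:**
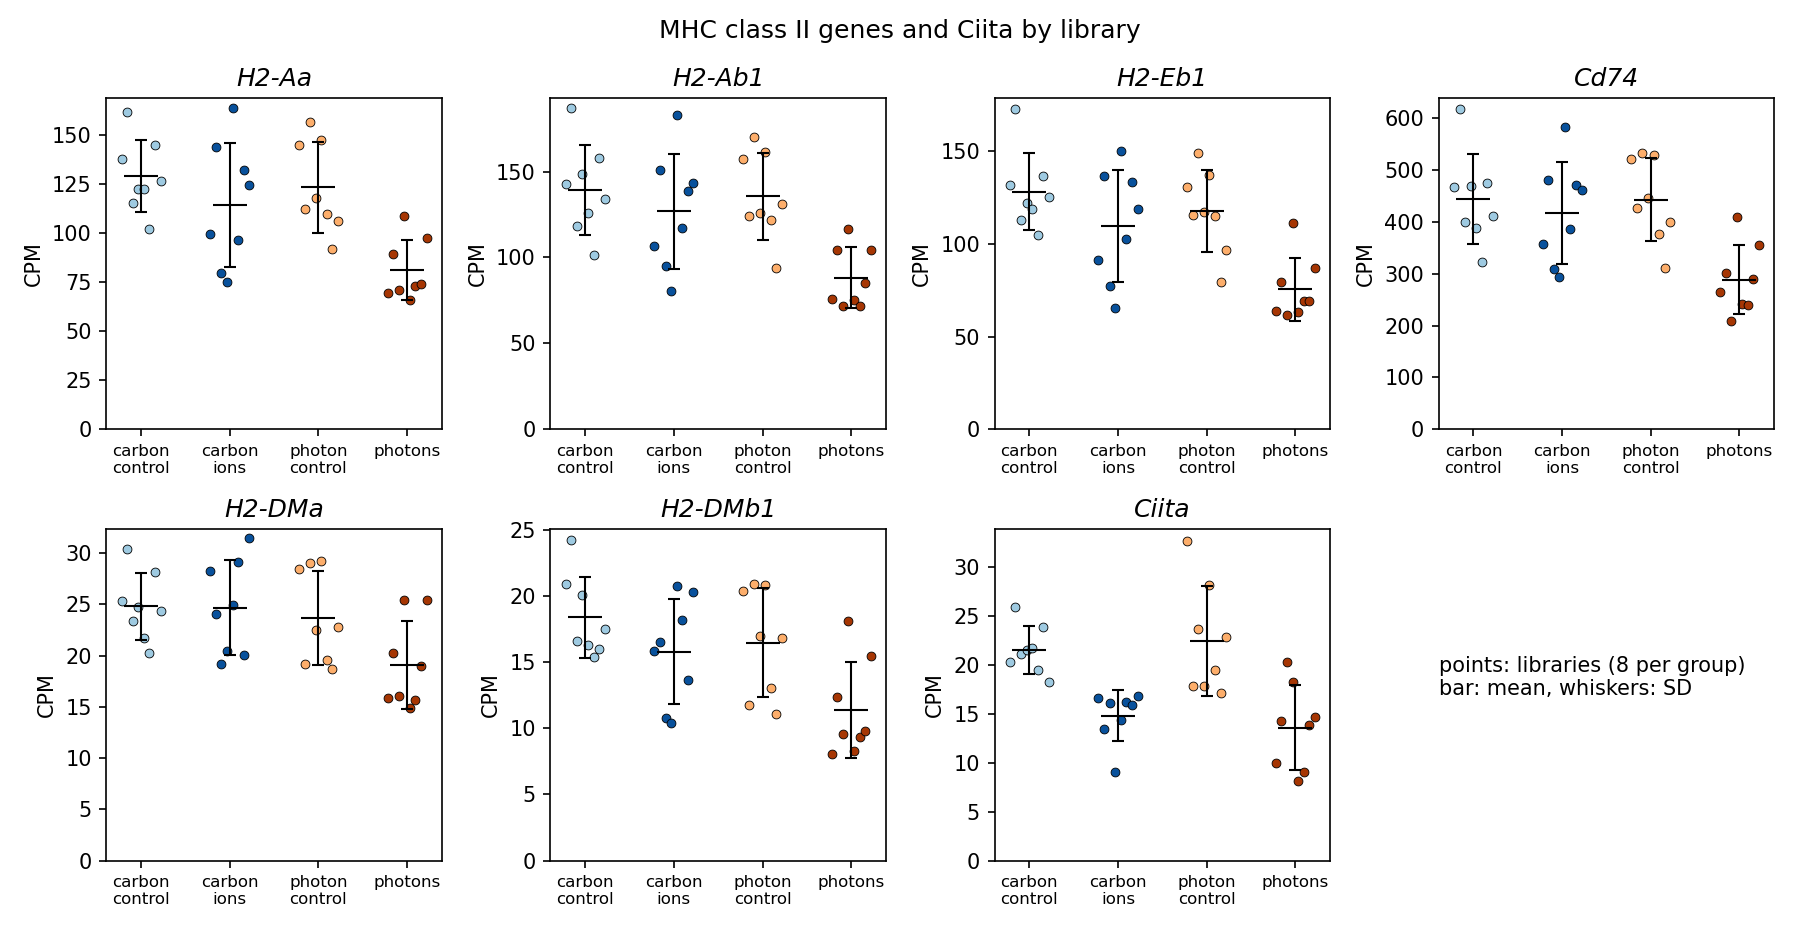
CPM of each of the 7 genes by library (vertical axis from 0) in the 4 groups, with the mean as a bar and whiskers of 1 SD over 8 libraries. The photon-irradiated group has the lowest mean for the chains and Cd74, with overlap between groups. For Ciita all 8 carbon-ion irradiated libraries lie below their controls, and 6 of the 8 photon-irradiated ones lie below every photon control.

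Library totals ranged from 13891863 to 71645903 estimated counts, and the lowest count of a member in any library was 147, for H2-DMb1, so counting error was small against the spread between tumours. Macrophage markers were abundant, with a summed level over 8 genes from 353 CPM in the lowest photon-irradiated library to 1043 CPM in the highest carbon-ion irradiated one. Summed over 8 dendritic cell markers the level was 38.4 to 88.8 CPM, and Itgax had the highest CPM among them. B cell markers were scarce, with 2 of 5 genes tested and a summed level of these from 0.352 to 1.44 CPM. Cd79a and Ms4a1 were at 0 in at least 1 library and did not pass the filter. No source used here says that the libraries of a group came from separate animals, so the p-values measure the spread between these samples. All photon libraries have titles with the letter M, while the letter D marks 4 libraries of the carbon-ion controls and 3 of those given carbon ions. The meaning of the letters is not stated. The title numbers of the photon controls (19 to 48) and of the photon-irradiated libraries (95 and above) do not overlap, so whatever these numbers stand for, which the labels do not say, and the photon effect cannot be told apart. Libraries given carbon ions have numbers up to 68, also below those of the photon-irradiated ones. The same therefore holds for the comparison of the irradiated groups.

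The first question was how photons changed class II expression. After photons, the 3 class II chains, Cd74 and Ciita were lower than in the photon controls, by 34.2% to 39.6%, while H2-DMa and H2-DMb1 had negative changes that did not pass. Thus 5 of the 7 genes were called lower by edgeR's quasi-likelihood test at a Benjamini-Hochberg adjusted p under 0.05, against a background of 2.10% of all genes tested (430 lower and 351 higher, 3.81% in all). Under upper-quartile scaling the split over all genes was 394 lower and 566 higher, and the same count of 5 members was called. The median log2 fold change of the 7 genes was -0.62, and that of all genes tested -0.00. The 5 calls were not independent of each other. With group means removed, the chains and Cd74 had pairwise Pearson correlations of 0.94 to 0.97.

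H2-Aa, the alpha chain of the I-A molecule, ranged from 91.6 to 157 CPM with a median of 115 in the photon controls. After photons it ranged from 65.9 to 109 CPM with a median of 73.4. The groups overlap, yet 6 of the 8 irradiated libraries lay below the lowest control. The log2 fold change was -0.60 ± 0.14 (SE; edgeR adjusted p = 0.018).

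H2-Ab1 encodes the partner of H2-Aa, the I-A beta chain. Its photon controls spanned 94.1 to 170 CPM around a median of 128, and the irradiated libraries 71.7 to 116.8 CPM around 80.5. Here 5 irradiated libraries were below every control and 7 controls above every irradiated library. The log2 fold change was -0.62 ± 0.15 (SE; adjusted p = 0.019) by the same test.

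H2-Eb1, the I-E beta chain, went from a control range of 79.5 to 149 CPM (median 116) to one of 61.6 to 111 CPM (median 69.2). Again 6 irradiated libraries lay below the lowest control. The log2 fold change was -0.64 ± 0.15 (SE; adjusted p = 0.018).

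Cd74, whose product guides new class II molecules and blocks their groove, ranged from 312 to 533 CPM in the controls, with a median of 436. After photons the range was 208 to 409 CPM and the median 277. Below the lowest control were 6 irradiated libraries, and the log2 fold change was -0.62 ± 0.15 (SE; adjusted p = 0.019).

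Ciita had the most negative photon change of the 7. In the controls it ranged from 17.1 to 32.6 CPM with a median of 21.1, and after photons from 8.12 to 20.3 CPM with a median of 14.1. Of the irradiated libraries 6 were below every control. The highest irradiated value, 20.3 CPM, belonged to replicate 3, the library with the lowest total, in which H2-Ab1 (71.7 CPM), Cd74 (208 CPM) and H2-Eb1 (61.6 CPM) were at the bottom of their group. The log2 fold change of Ciita was -0.73 ± 0.16 (SE; adjusted p = 0.013).

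The peptide loading genes did not pass. H2-DMa went from 18.7 to 29.2 CPM in the controls (median 22.6) to 14.9 to 25.4 CPM after photons (median 17.5). Its log2 fold change was -0.31 ± 0.13 (SE), and the adjusted p of 0.15 missed the threshold. H2-DMb1 ranged from 11.1 to 20.9 CPM (median 16.9) in the controls and from 8.07 to 18.1 CPM (median 9.69) after photons, a log2 fold change of -0.53 ± 0.18 (SE). It missed the threshold with an adjusted p of 0.075, passed with DESeq2 at 0.045, and passed at 0.049 when its counts were summed with those of H2-DMb2.

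The photon calls rested in part on 1 control library. Without photon control replicate 3, Ciita alone passed, at an adjusted p of 0.028, and the chains and Cd74 had adjusted p values of 0.054 to 0.055 with log2 fold changes of -0.54 to -0.58. With any other photon library removed, 5 members passed in 13 fits and 6 in 2.

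**Figure D2:**
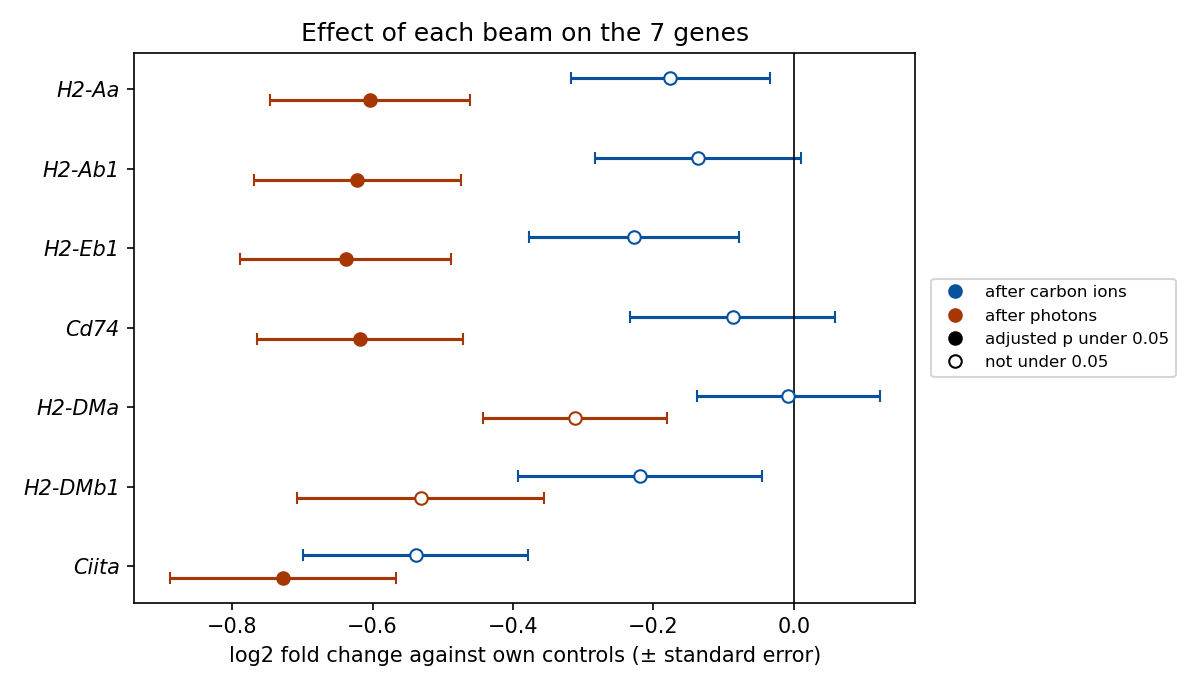
Log2 fold change of each gene against its own controls, with bars of 1 standard error, after carbon ions and after photons. Filled points have an adjusted p under 0.05; these are the 5 photon changes of H2-Aa, H2-Ab1, H2-Eb1, Cd74 and Ciita, and no carbon-ion change.

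In the same photon-irradiated libraries, single markers of macrophages, dendritic cells, T cells, fibroblasts and endothelium passed as lower, and most markers of these lists had negative changes. All 8 macrophage markers had negative changes and 2 passed, Csf1r at -0.54 (adjusted p = 0.026) and Mrc1 at -0.77 (0.043), and the summed level went from a median of 740 CPM in the controls to 495 CPM. All 8 dendritic cell markers were negative and 3 passed: Zbtb46 at -0.58, Itgax at -0.57 and Batf3 at -0.83, with adjusted p values of 0.0062, 0.015 and 0.043. Of 6 T cell genes Cd3d was lower, at -1.99 (0.041), and Cd8a higher, at 1.23 (0.045). All 6 fibroblast markers were negative too, with a median of -0.47 and 1 past the threshold, Pdgfrb at -0.52 (adjusted p = 0.026). So were all 4 endothelial markers, with a median of -0.44 and 1 past it, Tek at -0.91 (0.036), while 3 of 5 epithelial markers were positive, with a median of 0.02 and 0 past it. The B cell genes tested went both ways, Pax5 at 0.32 and Cd79b at -0.14, and neither passed. The leukocyte marker Ptprc, which encodes CD45, changed by -0.54 with an adjusted p of 0.053. With the mean log2 CPM of the macrophage markers as a covariate, none of the 7 genes passed after photons, and the number of genes called over the whole table went from 781 to 30. The log2 fold changes were then -0.43 to -0.49 for the chains and Cd74, -0.60 for Ciita, -0.25 for H2-DMb1 and -0.08 for H2-DMa, with adjusted p values from 0.25 to 0.93. With Ptprc as the covariate, an alternative added after the data were seen, the chains and Cd74 were at -0.53 to -0.61 and Ciita at -0.44. Again 0 members passed, with adjusted p values of 0.059 to 0.12 for these 5, and 363 genes passed in all. The part of cell content in the photon changes was not tested further.

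After carbon ions Ciita was the only one of the 7 genes whose groups did not overlap. No member passed the threshold, and neither did any other gene (0 of 20474, or 0%, with 1177 genes or 5.75% at an unadjusted p under 0.05). DESeq2 called 0 members and 17 genes in all. All 8 carbon-ion irradiated libraries had less Ciita than each of the 8 carbon-ion controls. In the controls Ciita ranged from 18.2 to 25.9 CPM with a median of 21.3, and in the irradiated libraries from 9.08 to 16.8 CPM with a median of 15.97. In this direction 2 of the 20474 genes (0.00977%) were separated, the other being Slc16a12, and 4 genes (0.0195%) in the opposite one. For any gene, a single one of the 12870 possible assignments of libraries to the groups gives this separation. A count of this size can therefore arise by chance among 20474 genes. The log2 fold change of Ciita was -0.54 ± 0.16 (SE), with an interval of -0.85 to -0.22, an edgeR p of 0.0020 before adjustment and 0.43 after it.

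The chains showed no such separation. H2-Aa was at 102 to 162 CPM (median 125) in the carbon-ion controls and at 75.1 to 164 CPM (median 112) after carbon ions, where 1 irradiated library exceeded every control. H2-Ab1 went from 102 to 187 CPM (median 138) to 80.2 to 183 CPM (median 128), and H2-Eb1 from 105 to 173 CPM (median 123.6) to 65.7 to 150 CPM (median 111). Their ranges were wide after carbon ions and covered most of the control ranges. The log2 fold changes were -0.18 ± 0.14, -0.14 ± 0.15 and -0.23 ± 0.15 (SE), at adjusted p values of 0.990 to 0.997.

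Cd74 and H2-DMa were close to their control levels. Cd74 ranged from 322 to 618 CPM (median 439) in the controls and from 294 to 583 CPM (median 424) in the irradiated libraries, a change of -0.09 ± 0.15 (log2, SE). For H2-DMa the medians were 24.6 and 24.5 CPM, and the change was -0.01 ± 0.13 (SE), with an interval of -0.26 to 0.25. Its sign turned with DESeq2 size factors. H2-DMb1 had medians of 17.1 and 16.2 CPM and a change of -0.22 ± 0.17 (SE).

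The level of the class II genes relative to Ciita within a library had a higher median after irradiation in both arms. The median log2 ratio of H2-Ab1 to Ciita was 2.76 in the carbon-ion controls and 3.11 in the irradiated libraries, and that of Cd74 to Ciita was 4.38 and 4.83. For H2-DMa it was 0.21 and 0.82. In the photon arm the same medians were 2.58 and 2.84 for H2-Ab1, 4.25 and 4.54 for Cd74, and 0.08 and 0.58 for H2-DMa. The means of the photon arm were 2.61 ± 0.20 and 2.74 ± 0.41 (SD, n = 8) for H2-Ab1 and 4.32 ± 0.23 and 4.44 ± 0.47 for Cd74. These 2 shifts were within the spread. For H2-DMa the means were 0.09 ± 0.17 and 0.53 ± 0.38. These ratios are given as a description, with no test.

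**Figure D3:**
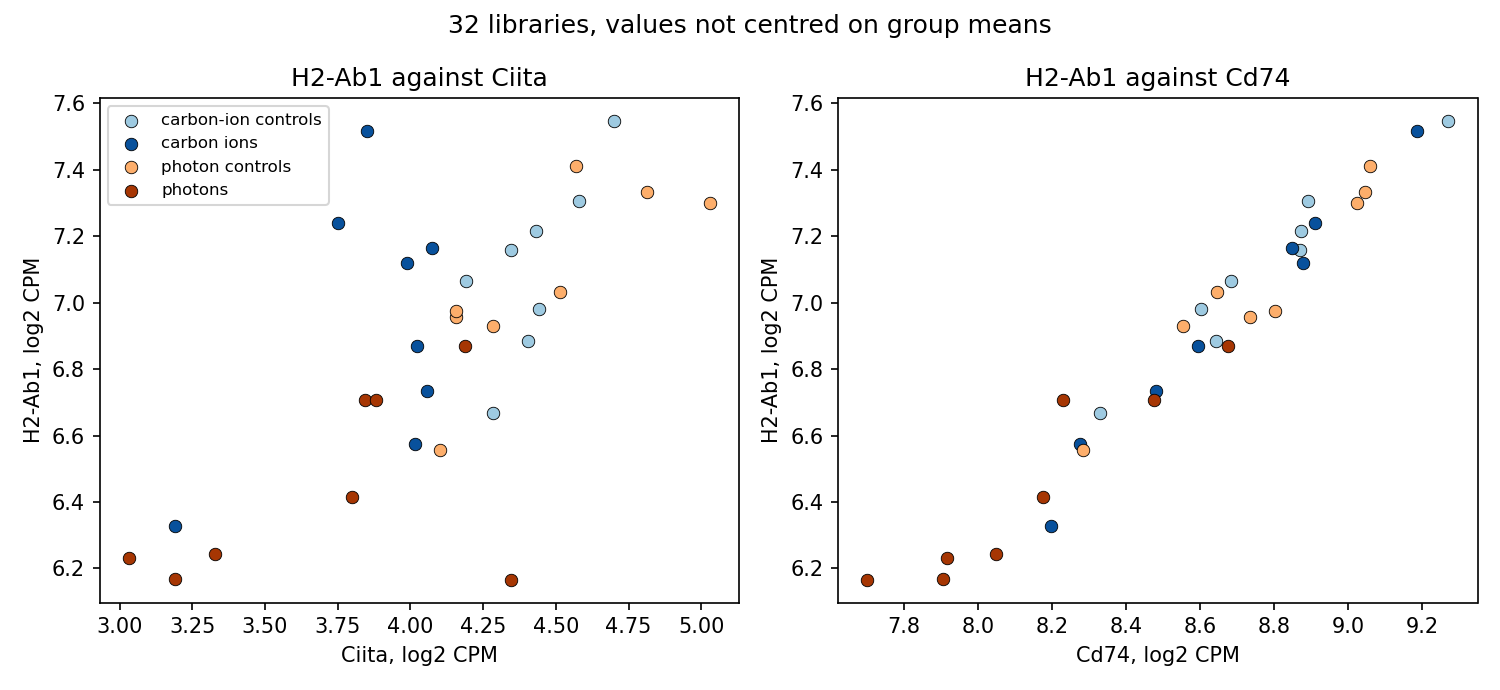
Log2 CPM of H2-Ab1 against Ciita (left) and against Cd74 (right), 1 point per library, 32 libraries, not centred on group means. H2-Ab1 follows Cd74 along 1 line in all 4 groups, whereas against Ciita most carbon-ion irradiated libraries lie to the left of the controls at the same H2-Ab1 level.

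Within the title letters the Ciita change of the carbon-ion arm was alike in size. It was -0.53 with D titles alone (4 controls of 20.3 to 25.9 CPM, 3 irradiated of 13.4 to 16.6 CPM), an alternative added after the data were seen. With M titles alone it was -0.50 (4 controls of 18.2 to 23.8 CPM, 5 irradiated of 9.08 to 16.8 CPM), with adjusted p values of 0.999 and 0.55. The other members differed more by letter. H2-Ab1 changed by -0.34 with D titles and by 0.05 with M titles, Cd74 by -0.35 and 0.16, H2-DMa by -0.12 and 0.11, and H2-DMb1 by -0.50 and 0.05, so the sign of these 4 turned. H2-Aa and H2-Eb1 stayed negative, at -0.31 and -0.04 and at -0.40 and -0.06. None of these passed.

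For a difference between the beams, the photon change of each gene was subtracted from its carbon-ion change. The result was positive for all 7 genes and passed for 0, against a background of 16 genes or 0.0781%; at an unadjusted edgeR p under 0.05 it was 3 of 7 and 13.0% of all genes, and DESeq2 called 0 members. Cd74 had the largest difference, 0.53 ± 0.21 (SE), with an interval of 0.13 to 0.94 and an adjusted p of 0.27. For H2-Ab1 it was 0.49 ± 0.21 (SE), for H2-Aa 0.43 ± 0.20 and for H2-Eb1 0.41 ± 0.21, at adjusted p values of 0.32, 0.36 and 0.40. That of Ciita was the smallest, 0.19 ± 0.23 (SE), with an interval of -0.25 to 0.63, which leaves room for a difference in either direction. All these differences hold the photon change, which cannot be told apart from what the title numbers stand for.

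The untreated tumours of both arms had similar class II levels. No member passed between the carbon-ion and the photon controls, where 9.14% of all genes did; at an unadjusted edgeR p under 0.05 the counts were 0 of 7 and 23.1%, and DESeq2 called 0 members. The log2 differences lay between -0.06 for Ciita and 0.16 for H2-DMb1, and the adjusted p values were at least 0.65. Ciita medians were 21.3 and 21.1 CPM, and Cd74 medians 439 and 436 CPM. The sign for Cd74, at 0.00, turned under upper-quartile scaling to -0.00.

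In the direct comparison of the irradiated groups, the chains and Cd74 were higher after carbon ions than after photons, and Ciita did not pass. These 4 of the 7 were called higher, against a background of 3.55% (726 higher and 315 lower, 5.08% in all; 519 and 537 under upper-quartile scaling, where H2-Aa missed the threshold at 0.053). The log2 differences were 0.49 for H2-Aa, 0.53 for H2-Ab1, 0.53 for H2-Eb1 and 0.53 for Cd74, with standard errors of 0.14 to 0.15, and the edgeR adjusted p values were 0.038, 0.036, 0.036 and 0.034. All 8 carbon-ion irradiated libraries exceeded the photon-irradiated median of Cd74, and 4 exceeded every photon-irradiated library. Ciita differed by 0.13 ± 0.16 (SE; adjusted p = 0.64). H2-DMa, at 0.37, and H2-DMb1, at 0.47, missed the threshold at 0.082 and 0.097. The title numbers of the 2 irradiated groups do not overlap. What these numbers stand for and the beam cannot be told apart here. This contrast was not firm: of 16 fits with 1 library removed, 7 called 0 members (carbon-ion irradiated replicates 2, 5 and 7, photon-irradiated replicates 1, 3, 5 and 7). Without photon-irradiated replicate 6 it was 2, and without carbon-ion irradiated replicate 3 or photon-irradiated replicate 4 it was 6. No member passed with the macrophage covariate, with the title letter as a term, without the filter on low counts, or with these 2 groups alone in the fit. The log2 differences of the chains and Cd74 were 0.41 to 0.65 in the 16 fits and 0.31 to 0.64 under the other alternatives. In the same contrast 4 of the 8 macrophage markers were higher after carbon ions, Csf1r at 0.54, C1qa at 0.58, C1qb at 0.63 and C1qc at 0.65, and of the dendritic cell markers Itgax at 0.58; their part in the class II values was not tested further.

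To set each gene beside the macrophage content of its library, its log2 CPM was taken relative to the mean log2 CPM of the 8 macrophage markers. After carbon ions Ciita was lower on this scale, at -2.35 ± 0.28 (SD, n = 8) against -1.66 ± 0.17 in the controls. The difference was -0.69 with a two-sided exact permutation p of 0.000311 over 12870 assignments. The macrophage markers themselves had median log2 fold changes of 0.16 after carbon ions and -0.37 after photons. A gene of unchanged CPM is therefore lower on this scale after carbon ions and higher after photons. H2-DMb1 differed by -0.38 (exact permutation p = 0.037), and the 5 others by -0.16 to -0.41 with exact permutation p values of 0.066 to 0.287. After photons no gene passed on this scale, with changes from -0.29 for Ciita to 0.14 for H2-DMa and exact permutation p values of 0.219 to 0.61. Benjamini-Hochberg adjusted over these 14 tests, the permutation p was 0.00435 for Ciita after carbon ions and 0.259 for H2-DMb1, which then missed the threshold. That adjustment does not cover the choice of members and tests, which was made with earlier results of these data known. The ratio was not tested for all genes, and on CPM the edgeR adjusted p of Ciita over all genes was 0.43. Relative to Ptprc in place of the macrophage markers, the Ciita difference after carbon ions was -0.55 (exact permutation p = 0.00342) and H2-DMb1 no longer passed, at -0.24 (exact permutation p = 0.344). After carbon ions 7 of the 8 macrophage markers had positive changes, none past the threshold, and 6 of the 8 dendritic cell markers had negative ones, also none past it, among them Xcr1 at -1.05, Clec9a at -0.92 and Cd209a at -0.82. Flt3, Zbtb46 and Batf3 were at -0.19, -0.23 and -0.31. The other 2 were positive, Itgax at 0.18 and Ccr7 at 0.33, and Itgax has the highest CPM of the list (not per length), at a mean of 38.4 CPM without and 43.6 CPM with carbon ions. The part of dendritic cell content in the carbon-ion values of Ciita was not tested.

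Across the 32 libraries, with group means removed, the chains and Cd74 varied almost as 1 unit. Their pairwise Pearson correlations of log2 CPM were 0.94 to 0.97, H2-DMa and H2-DMb1 correlated at 0.89, and the lowest pair was Ciita with Cd74 at 0.46. The points share library depth and cell content, and these pair values are a description.

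Ciita was related to the other members and to immune cell markers but less closely. Of 26 relations tested, 10 had a Benjamini-Hochberg adjusted permutation p under 0.05 by Pearson's r. Among members Ciita was closest to H2-DMa, with Pearson's r of 0.63 (permutation p = 0.00091, adjusted 0.0088) and Spearman's rho of 0.68 (permutation p = 0.00020). Without the 2 libraries farthest from the Ciita median r was 0.58. With H2-Ab1 it had r = 0.53 (permutation p = 0.0025, adjusted 0.013), rho = 0.49 (permutation p = 0.0067) and 0.43 without these 2 libraries. The values of r were 0.62 with H2-DMb1, 0.51 with H2-Aa, 0.48 with H2-Eb1 and 0.46 with Cd74, and without the 2 libraries 0.54, 0.38, 0.34 and 0.36. By rank, H2-Eb1 missed the threshold, with rho = 0.43 (adjusted permutation p = 0.054). Within single groups r of Ciita with the 6 members ranged from 0.31 to 0.87.

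Among the markers Ciita went with leukocyte, dendritic cell and T cell genes. Its r was 0.54 with Ptprc (permutation p = 0.00056, adjusted 0.0088; rho 0.65) and 0.54 with the dendritic cell markers (permutation p = 0.0017, adjusted 0.011; rho 0.65). With the T cell markers r was 0.44 (permutation p = 0.0063, adjusted 0.023; rho 0.57). Without the 2 libraries these were 0.62, 0.58 and 0.51. With the macrophage markers r was 0.25 (adjusted permutation p = 0.38) and with the B cell markers 0.08 (0.74). For H2-Ab1 r was 0.39 with the macrophage markers (adjusted permutation p = 0.092) and 0.36 with the dendritic cell markers (0.10), neither passing. Not centred on group means, these were 0.59 (adjusted permutation p = 0.048), which passed, and 0.60 (0.052). For H2-Ab1 with Irf1, an interferon-induced transcription factor, r was 0.43 (permutation p = 0.016, adjusted 0.042) and rho 0.41 (permutation p = 0.029, adjusted 0.063), so the rank correlation missed the threshold. For Ciita with Irf1 r was 0.11 (adjusted permutation p = 0.73). Ciita with Nlrc5, the class I regulator, passed by rank only, with rho = 0.50 (permutation p = 0.0050, adjusted 0.0215) and r = 0.39 (permutation p = 0.037, adjusted 0.087). Ifng was too scarce to be tested.

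The genes most like the mean of the 7 members, over the 32 libraries with group means removed, were Tifab at r = 0.83, Ear2 at 0.80, Psmb10 at 0.78, Trmt61a, Mgl2 and Cst3 at 0.73, and Susd3 and Kmo at 0.71. Mgl2 is a lectin of macrophages and dendritic cells, and Psmb10 is a subunit of the immunoproteasome. Most like Ciita were Kmo at 0.75, Rasgrp1 at 0.73, Tifab at 0.72, Fancd2, Dna2, Traf1 and E2f2 at 0.70, and Irf4 at 0.68. H2-DMa, the first of the members, stood at rank 27 of 13940 genes in the likeness to Ciita. These are the highest values of a ranking and carry no test.

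Other genes of the pathway were followed in lists. Of the remaining class II genes H2-Eb2, H2-DMb2, H2-Oa and H2-Ob were tested, while H2-Ea, the partner of H2-Eb1, never exceeded 1 count in a library. None of the 4 passed in any comparison, and all 4 were negative after photons. H2-DMb2 was at -0.71 with an adjusted p of 0.055, H2-Oa at -1.25 with 0.066, H2-Ob at -0.80 with 0.15, and H2-Eb2 at -0.98 with 0.22. H2-Oa and H2-Ob form H2-O, which restrains H2-M in B cells and some dendritic cells. After carbon ions H2-Oa was at -0.56 ± 0.39 (SE) and the other 3 between -0.09 and 0.19.

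Among the genes that cut the invariant chain, reduce antigens and turn over class II molecules, none of 8 passed after either beam. After carbon ions 7 of 8 had positive changes, with a list median of 0.19, and after photons 6 of 8 negative ones, with a median of -0.26. Ctss, the protease that makes the last cut in the invariant chain of dendritic cells, was at 0.33 (adjusted p = 0.86) and -0.36 (0.18). Between the irradiated groups Ctss at 0.66, Marchf1 at 0.60, Cd83 at 0.59 and Sppl2a at 0.30 were higher after carbon ions, with edgeR adjusted p values of 0.024, 0.031, 0.034 and 0.030. Marchf1 is a ubiquitin ligase that removes class II from the surface and Cd83 protects against it. Marchf8 was higher in the carbon-ion than in the photon controls, at 0.25 with an adjusted p of 0.024.

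The factors that assemble on the X and Y elements changed little. Of Rfx5, Rfxank, Rfxap, Nfya, Nfyb, Nfyc and Creb1, 0 of 7 passed after either beam, and list medians were 0.04 after carbon ions and -0.06 after photons. Rfx5, a DNA-binding subunit of the X box complex, was lower in the carbon-ion than in the photon-irradiated libraries, by -0.37 with an adjusted p of 0.021. Against its own controls it was at -0.26 after carbon ions (adjusted p = 0.52) and at 0.07 after photons (0.71).

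Of 11 inducers and repressors of Ciita, 10 were tested and 0 passed after either beam. Irf1 was at 0.07 (adjusted p = 0.997) and -0.11 (0.28). Spi1, the PU.1 factor of myeloid cells, was at 0.09 and -0.56, the latter with an adjusted p of 0.085, and the repressor Prdm1 at -0.05 and -0.00. Ifngr1, a chain of the interferon gamma receptor, was higher in the carbon-ion than in the photon controls, at 0.47 with an adjusted p of 0.0065, and between the irradiated groups Ifngr1 and Ifngr2 were higher after carbon ions, at 0.39 and 0.41 with 0.035 and 0.034.

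Class I presentation, which uses Nlrc5 in the place of Ciita, had the opposite sign after carbon ions. All 9 class I genes tested were positive there, with a median of 0.40 against -0.18 for the 7 class II genes and 0.01 for all genes, and 0 of the 9 passed. H2-K1 was at 0.51 ± 0.21 (SE; adjusted p = 0.72), B2m, the shared light chain, at 0.46 ± 0.16 (0.59), and Nlrc5 at 0.45 ± 0.41 (0.997). After photons 8 of 9 were negative with a median of -0.25, and 0 passed. B2m was higher after carbon ions than after photons, at 0.57 with an adjusted p of 0.038. Whether the class I and class II changes differ was not tested.

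**Figure D4:**
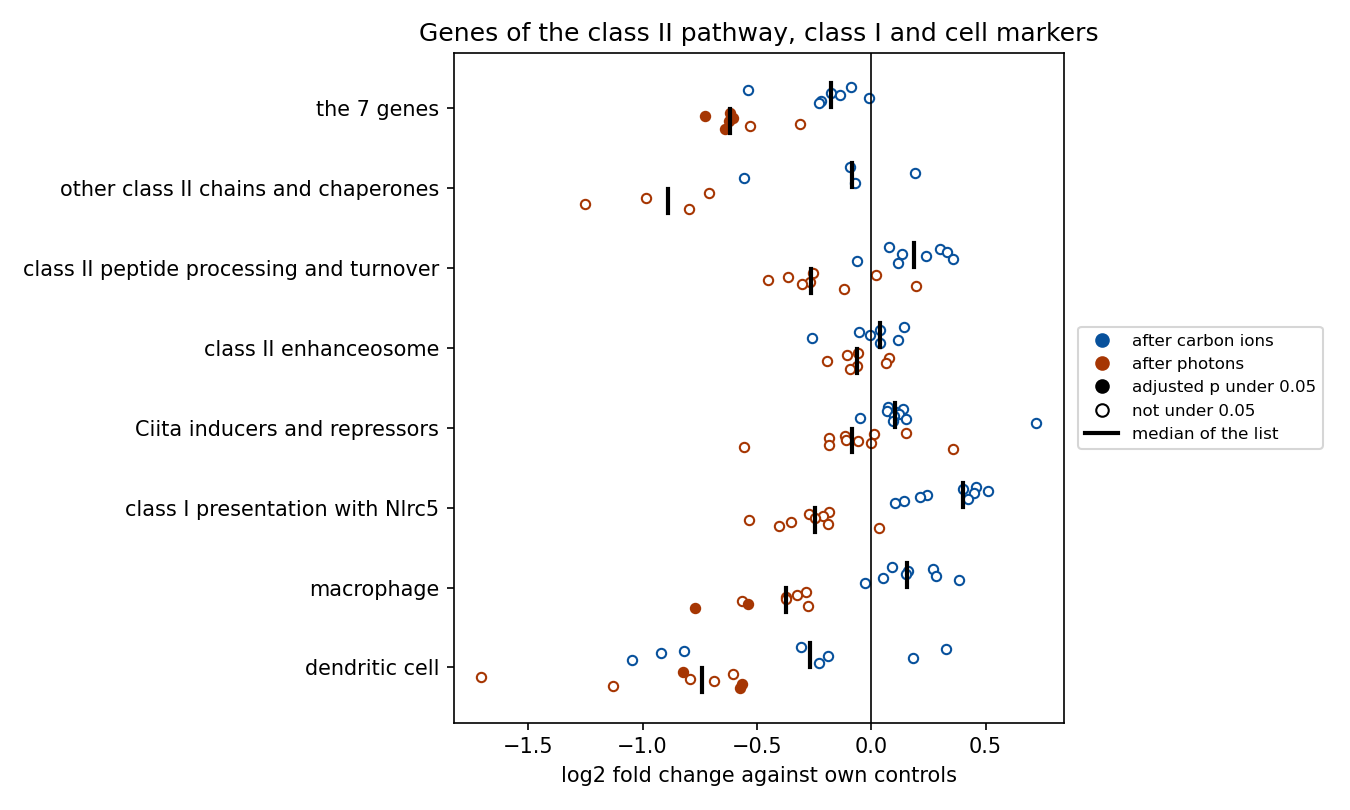
Log2 fold change against own controls of every tested gene in the class II, class I and cell marker lists, after carbon ions and after photons, with a bar at each list's median. Filled points have an adjusted p under 0.05; for the 7 genes the medians are -0.18 and -0.62, and the class I genes lie right of 0 after carbon ions.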

How the data were processed

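RNA came from tumour pieces kept in RNAlater, and stranded mRNA libraries were made with an Illumina kit, per the labels' protocols. The count table gives RSEM's estimated counts for each gene, made by the authors from trimmed reads, per the submitters' processing notes, which name FastQC 0.12.0, Trimmomatic 0.32, RSEM 1.3.3 and the build mm10. The aligner, annotation and strand setting are not given in the sources used here. The estimated counts were rounded to whole numbers, which changed a library total by at most 0.00403%. In R 4.3.3 with edgeR 4.0.16, filterByExpr (minimum count 10) kept 20474 of 55103 genes, TMM factors scaled the library totals, and the quasi-likelihood fit took all 32 libraries with 1 term for each group. P-values were Benjamini-Hochberg adjusted over all genes, with a threshold of 0.05. Standard errors came from the F statistic, intervals are 1.96 standard errors to each side, and log2 CPM used a prior count of 2. Scripts were tested on simulated data.

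The members, lists and tests were chosen with earlier results of these data known. Named beside the 7 members are every pathway gene that passed in a comparison, others set for context (Ifng, Irf1, Rfx5, Ctss, H2-DMb2, H2-Ob, H2-Oa and Nlrc5; a further one is not reported here), marker genes and, for likeness to the members or to Ciita, the 8 genes with the highest Pearson r and a mean log2 CPM of at least 1. H2-Eb2, H2-K1, Spi1, Prdm1, Slc16a12 and the markers named without a call were chosen after their values were seen. Correlations were tested by 100000 permutations within groups, and gene-to-marker ratios by exact permutation. The alternatives were upper-quartile scaling, DESeq2 1.42.0 and its size factors, other count filters, title letters, marker covariates and leaving out each library. Replicate numbers only name libraries, in accession order, and give no pairs. Promoter sequences are from RefSeq (GRCm38.p6).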

Additional observations from a re-analysis of the deposited data

Results flagged for a closer look

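Single libraries that stood apart from the rest of their group were looked for in the 28 sets of 8 values that the 7 genes and 4 groups give, with Dixon's gap test at its 95% critical value, which chance passes in about 1 set of 20. It marked 2 sets. H2-Eb1 was at 172.9 CPM in carbon-ion control replicate 2, the highest of its group, and the same library also had the highest control values of H2-Aa (162 CPM), H2-Ab1 (187 CPM), Cd74 (618 CPM), H2-DMa (30.4 CPM), H2-DMb1 (24.2 CPM) and Ciita (25.9 CPM). Ciita was at 9.08 CPM in carbon-ion irradiated replicate 4, the lowest of its group, and H2-Aa (75.1 CPM), H2-Ab1 (80.2 CPM), H2-Eb1 (65.7 CPM), Cd74 (294 CPM) and H2-DMb1 (10.4 CPM) were lowest there too, while H2-DMa (20.5 CPM) was not.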

How the results depend on the processing

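After photons, 5 members were called, and each of the 11 alternatives other than leaving out a library gave 5 or 6, except the macrophage and the Ptprc covariates, each with 0. Without 1 library the count ran from 1 to 6. Between the irradiated groups, 4 were called, and 0 with no filter on low counts, with the macrophage covariate, with the title letter as a term and with 2 groups in the fit, and from 0 to 6 without 1 library; the cause was not tested. For carbon ions, the difference of effects and the controls the count was 0 under every alternative run. The ratio to macrophage markers passed before adjustment for 2 genes and to Ptprc for 1. Some signs turned, and none of these values passed under either sign. For carbon ions this was H2-DMa at 0.0027 with DESeq2 size factors in edgeR, 0.0024 with the DESeq2 test and -0.062 to 0.038 without 1 library, and with M titles H2-Ab1 at 0.054, Cd74 at 0.16, H2-DMa at 0.11 and H2-DMb1 at 0.048. For the difference of effects it was H2-DMa at -0.013 and H2-DMb1 at -0.072 with the macrophage covariate and Ciita at -0.10 with Ptprc. For the irradiated groups it was Ciita at -0.024 with the macrophage covariate and -0.082 with Ptprc. For the controls it was Cd74 at -0.0040 with upper-quartile scaling, -0.028 with the title letter, -0.14 with M titles and -0.067 to 0.073 without 1 library, Ciita at 0.021 with Ptprc and -0.10 to 0.048 without 1 library, H2-Ab1 at -0.054 with M titles and -0.018 to 0.11 without 1 library, and H2-DMb1 at -0.0061 with M titles. Not centred on group means, r was 0.14 for Ciita and 0.028 for H2-Ab1 with fibroblast markers. No paired analysis was possible because replicate numbers follow the order of deposition. Over all genes, 781 passed after photons (30 to 1524 under the alternatives, 239 to 1656 without 1 library) and 1041 between the irradiated groups (3 to 3241, and 108 to 2159). Depth did not limit the members, whose lowest count was 147.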
